A study of Sus scrofa with 6 samples.

Results

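The genes described here mark the endothelial cells that line blood vessels and the signals that make vessels grow. They were chosen by symbol from a list of 10: PECAM1, CDH5, KDR, FLT1, TEK, TIE1, VWF, VEGFA, VEGFB and ANGPT1. The values of all transcripts sharing a gene were summed, and 9 of the 10 genes could be matched by gene name, with 39 of the 83119 transcripts of the table. VEGFB was not analysed here. The samples were longissimus dorsi (LD), a muscle that runs along the spine, from 6 Laiwu pigs, a Chinese breed with fatty meat. All were castrated males, as the study states. Pigs LW63, LW70 and LW119 had a high content of intramuscular fat (IMF) and formed the S-H group, and LW82, LW88 and LW90 had a low content and formed the S-L group. No treatment or allele is given for either group, their age is not given in the sources used here, and each pig gave 1 library of RNA depleted of ribosomal RNA. The comparison asks which transcripts differ in level between muscle with much and with little fat. The groups were taken from the extremes of IMF content, so they do not describe the animals between them.

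Muscle fibres and fat cells alike are fed by capillaries, and a growing fat depot must be given vessels. Vascular endothelial growth factor A (VEGFA), released by muscle fibres, fat cells and others, binds the endothelial receptors KDR, which carries most of the growth signal, and FLT1, which binds VEGFA tightly and can act as a decoy. Angiopoietin 1 (ANGPT1), made by cells around the vessel, binds TEK (also called TIE2) and keeps vessels quiet and tight, with TIE1 as a partner of TEK that has no well established ligand of its own. PECAM1 and CDH5 join endothelial cells to each other, and VWF is the clotting protein that these cells store and secrete.

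Values were FPKM (fragments per kilobase of transcript, scaled to the fragments of the library), a level per transcript length, so levels of different genes can be compared. Summed over transcripts, a library held between 638536 FPKM (LW119) and 846661 FPKM (LW82), and between 44552 and 48568 transcripts were above 0. Of the 12740 protein-coding genes tested, 74.1% had a log2 fold change above 0, written here as S-H minus S-L, and the median over all of them was 0.21. When the libraries were rescaled by median-ratio size factors this median became 0.0063, so fold changes are also set against it below. Markers of muscle fibres, endothelium, pericytes and smooth muscle, fibroblasts, leukocytes and fat cells were present in every pig, with CKM, the creatine kinase of muscle, between 1985 and 3939 FPKM. In bulk muscle, fewer cells of a type and less RNA per cell cannot be told apart.

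PECAM1 was the highest of the 9 genes, with a mean of 52.1 FPKM over the 6 pigs, above 94.8% of all tested genes. TEK followed at 15.4 FPKM and VEGFA at 10.9 FPKM. In 6 of 6 pigs PECAM1 was above TEK and TEK above VEGFA. Next came CDH5 at 9.46 FPKM, VWF at 8.77 FPKM, KDR at 7.31 FPKM, TIE1 at 5.47 FPKM and FLT1 at 3.89 FPKM. Among these 6 genes from VEGFA to FLT1, the order of neighbours held in only 3 to 5 of the 6 pigs, so neighbouring genes did not differ beyond the spread between pigs. ANGPT1 was lowest, with a mean of 1.01 FPKM, and lay below FLT1 in 6 of 6 pigs. The level of a gene varied between pigs by a factor of 1.57 for TEK, the most even of the 9, to 3.56 for ANGPT1.

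None of the 9 genes passed the thresholds of the study between S-H and S-L, which ask for p below 0.01 before adjustment and at least a doubling or halving (log2 fold change of 1 or more in size), in the limma test, whereas 1.36% of all tested genes did. None had an unadjusted p below 0.05 either, against 8.16% of all tested genes. The log2 fold change was positive for 7 genes and negative for VWF and FLT1, but this split was 5 to 4 when libraries were rescaled by size factors or quantiles, with CDH5 and KDR then negative. The median over the 9 genes was 0.28 against 0.21 for all tested genes, and 5 of the 9 lay above the median of all genes. Only PECAM1 had groups that did not overlap, with S-H above S-L, as 13.1% of all tested genes did. Every 95% interval of the 9 genes crossed 0.

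**Figure D1:**
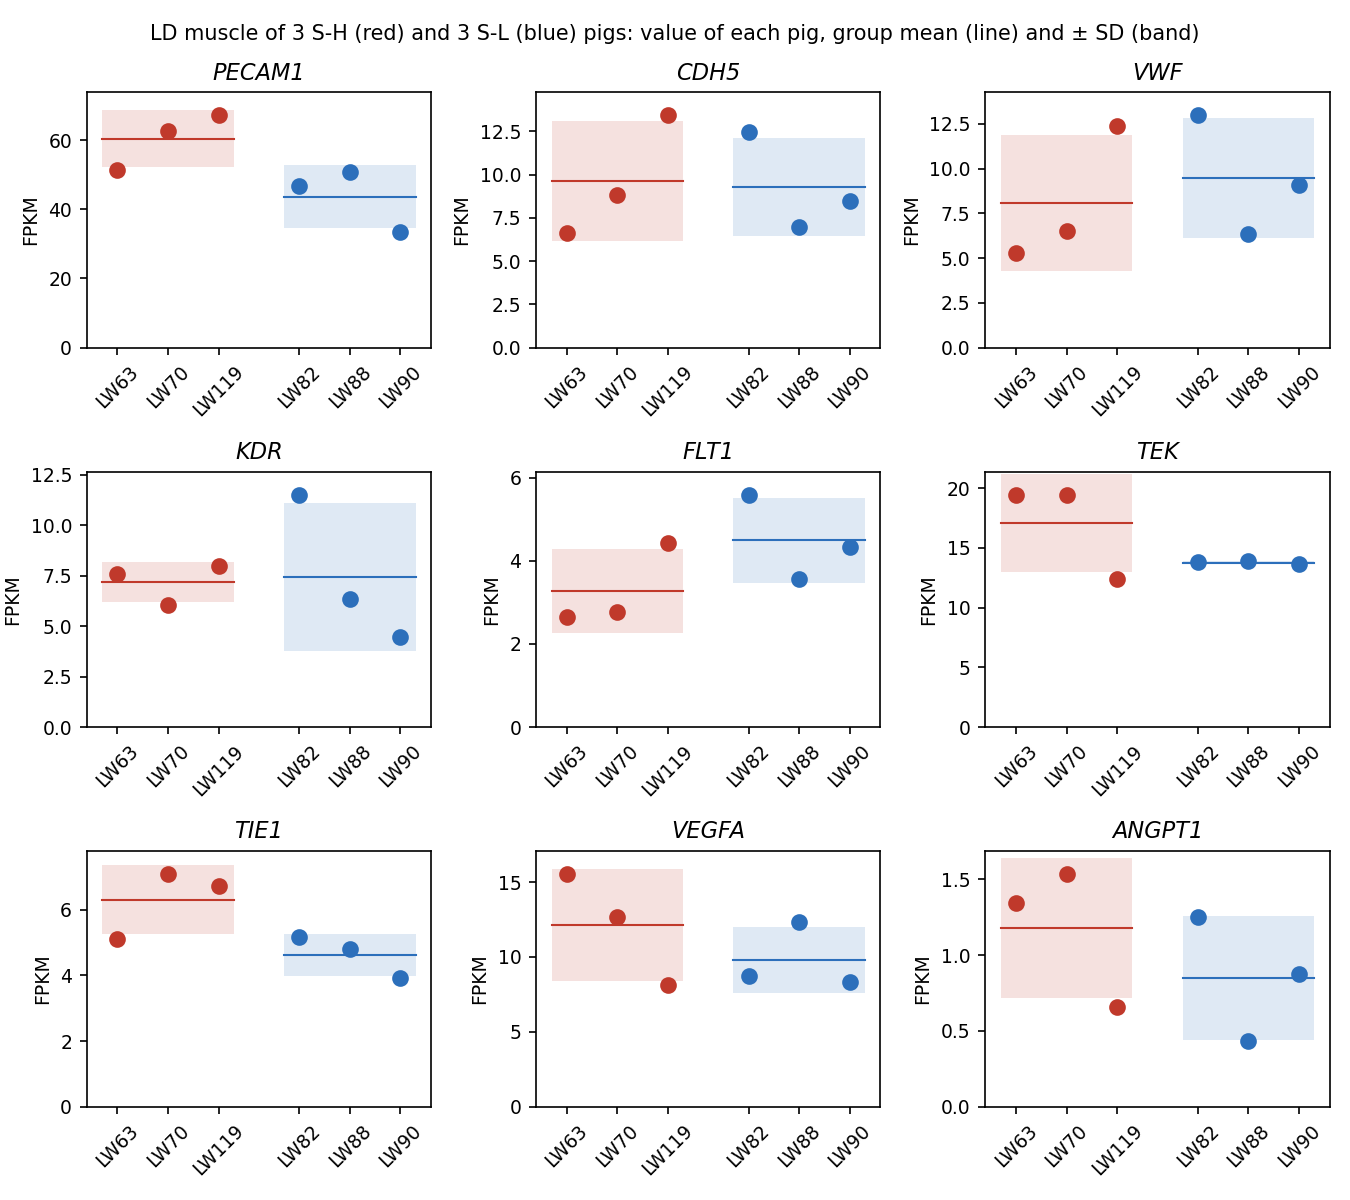
Level in FPKM (vertical axes, each starting at 0) of the 9 endothelial and angiogenic genes in each pig (horizontal axes). Red points are S-H and blue points S-L pigs, the line is the group mean and the band ± SD (n = 3). Only for PECAM1 do all 3 red points lie above all 3 blue points, and LW119 and LW82 hold the highest values of CDH5, VWF, KDR and FLT1.

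Among the proteins of the endothelial cell itself, PECAM1 was higher on average in S-H, while CDH5 and VWF differed little against their spread. PECAM1, on chromosome 12 from 14582481 to 14723336 of the pig assembly Sscrofa11.1, encodes an adhesion protein of endothelial junctions that platelets and leukocytes carry as well. It stood at 51.4, 62.7 and 67.3 FPKM in LW63, LW70 and LW119 and at 46.8, 50.9 and 33.6 FPKM in LW82, LW88 and LW90. The lowest S-H pig and the highest S-L pig were almost level, and LW90 lay well below the other 5 pigs. The S-H mean was 60.5 ± 8.18 FPKM and the S-L mean 43.7 ± 9.05 FPKM (SD, n = 3 for each). The log2 fold change was 0.48 (SE 0.25, 95% interval -0.080 to 1.04), with an adjusted p = 0.621 in limma. Against the median of all genes the difference was 0.26. The exact permutation test gave p = 0.10, the smallest that 3 pigs against 3 allow. The log2 fold change was 0.97 (adjusted p = 0.704 in limma) when the transcript with the highest mean was used in place of the sum, 0.26 with size factors and 0.30 without LW90.

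CDH5, on chromosome 6 from 27108609 to 27142180, encodes VE-cadherin, the adhesion protein that holds the junctions of endothelial cells together. Its values were 6.61, 8.83 and 13.4 FPKM in LW63, LW70 and LW119 and 12.4, 6.96 and 8.50 FPKM in LW82, LW88 and LW90. A pig of each group, LW119 and LW82, was high and the ranges overlapped almost wholly. S-H averaged 9.63 ± 3.48 FPKM and S-L 9.30 ± 2.83 FPKM (SD, n = 3 for each). With a log2 fold change of 0.031 (SE 0.32, 95% interval -0.69 to 0.76, adjusted p = 0.983 in limma), a log2 change of 1 in either direction lay outside the interval.

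VWF, on chromosome 5 from 64519186 to 65002098 over its Ensembl transcripts, was at 5.31, 6.51 and 12.4 FPKM in LW63, LW70 and LW119. In LW82, LW88 and LW90 it was at 12.98, 6.32 and 9.08 FPKM. Again LW119 and LW82 were the highest pigs. The S-H mean was 8.07 ± 3.79 FPKM and the S-L mean 9.46 ± 3.35 FPKM (SD, n = 3 for each). This gave a log2 fold change of -0.26 (SE 0.37, 95% interval -1.09 to 0.56, adjusted p = 0.847 in limma). It was -0.62 without LW119 and -0.01 without LW82. The platelet markers, which bear on VWF and PECAM1 because platelets hold both, summed to between 4.04 and 4.35 FPKM in S-H and between 2.47 and 5.50 FPKM in S-L, with 3 of 4 markers matched. Of these, PPBP passed the thresholds (0.464 to 0.692 FPKM in S-H, 0 to 0.182 FPKM in S-L). The other matched markers, ITGA2B (log2 fold change -0.058) and GP9 (0.50), had overlapping groups and did not pass. The part of platelets in the PECAM1 difference was not tested.

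Neither receptor of VEGFA passed the test, with groups that overlapped in both. KDR, on chromosome 8 from 41809116 to 41856339, was at 7.58, 6.07 and 7.95 FPKM in LW63, LW70 and LW119 and at 11.5, 6.32 and 4.44 FPKM in LW82, LW88 and LW90. The S-H pigs lay close together and inside the range of the S-L pigs, which held both the highest and the lowest value. S-H averaged 7.20 ± 0.999 FPKM and S-L 7.42 ± 3.66 FPKM (SD, n = 3 for each). The log2 fold change, a difference of mean logs and here opposite in sign to the difference of mean FPKM, was 0.057 (SE 0.34, 95% interval -0.71 to 0.82, adjusted p = 0.967 in limma).

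FLT1, on chromosome 11 from 5620700 to 5795264, had the most negative fold change of the 9 genes. Its values were 2.64, 2.76 and 4.43 FPKM in LW63, LW70 and LW119 and 5.59, 3.57 and 4.32 FPKM in LW82, LW88 and LW90. LW63 and LW70 were below every S-L pig, and LW119 was second only to LW82. The S-H mean was 3.28 ± 1.003 FPKM and the S-L mean 4.50 ± 1.02 FPKM (SD, n = 3 for each). This gave a log2 fold change of -0.46 (SE 0.30, 95% interval -1.13 to 0.21, adjusted p = 0.669 in limma). Against the median of all genes the difference was -0.68. With size factors the log2 fold change was -0.68 (adjusted p = 0.715 in limma) and with quantile normalization -0.67 (adjusted p = 0.737 in limma), and FLT1 was the only gene of the 9 with an unadjusted p below 0.05 in those settings. It was smaller in size in TPM (-0.33), with the highest transcript (-0.34) and without LW82 (-0.29), and -0.69 without LW119. FLT1 amounted to 0.348, 0.455 and 0.557 of KDR in LW63, LW70 and LW119 and to 0.486, 0.565 and 0.974 of KDR in LW82, LW88 and LW90. FLT1 RNA thus came nearest to KDR RNA in LW90, the pig with the lowest KDR. On the log2 scale this ratio differed by -0.53 (exact two-sided permutation test, p = 0.2, adjusted p = 0.5 over 5 ratios).

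TEK and TIE1, the receptors of the angiopoietin system, were both higher on average in S-H, and neither passed the test. TEK, on chromosome 1 from 195937394 to 196051957, was at 19.4, 19.5 and 12.4 FPKM in LW63, LW70 and LW119 and at 13.8, 13.9 and 13.7 FPKM in LW82, LW88 and LW90. The 3 S-L pigs were nearly equal, with LW63 and LW70 above them and LW119 below. S-H averaged 17.1 ± 4.09 FPKM and S-L 13.8 ± 0.109 FPKM (SD, n = 3 for each). The resulting log2 fold change was 0.28 (SE 0.25, 95% interval -0.28 to 0.84, adjusted p = 0.748 in limma). It was 0.50 without LW119, 0.17 without LW63 or without LW70, and 0.059 with size factors.

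TIE1, on chromosome 6 from 167919668 to 167940874, stood at 5.11, 7.09 and 6.72 FPKM in LW63, LW70 and LW119. In LW82, LW88 and LW90 it stood at 5.17, 4.80 and 3.92 FPKM. The groups overlapped by LW63 and LW82 alone, which were almost equal. The S-H mean was 6.31 ± 1.05 FPKM and the S-L mean 4.63 ± 0.639 FPKM (SD, n = 3 for each). This gave a log2 fold change of 0.43 (SE 0.25, 95% interval -0.14 to 1.001, adjusted p = 0.650 in limma). With size factors it was 0.22. The ratio of TIE1 to TEK ran from 0.263 to 0.543 in S-H and from 0.287 to 0.375 in S-L, with a log2 difference of 0.16 (exact two-sided permutation test, p = 0.8, adjusted p = 0.8 over 5 ratios).

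Of the ligands, VEGFA and ANGPT1 were both higher on average in S-H, with groups that overlapped in both. VEGFA, on chromosome 7 from 38746052 to 38761038, was at 15.5, 12.7 and 8.13 FPKM in LW63, LW70 and LW119 and at 8.70, 12.3 and 8.34 FPKM in LW82, LW88 and LW90. LW63 was the highest pig, and LW119 of the same group was the lowest of all 6. S-H averaged 12.1 ± 3.73 FPKM and S-L 9.78 ± 2.19 FPKM (SD, n = 3 for each). The resulting log2 fold change was 0.28 (SE 0.30, 95% interval -0.38 to 0.94, adjusted p = 0.790 in limma). It was 0.077 without LW63 and 0.54 without LW119.

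The value of VEGFA depended on which transcripts were counted. Of its 9 transcripts 4 were assembled by the authors and reach past the annotated gene, to 38765842. Annotated transcripts alone summed to 9.87, 8.46 and 3.98 FPKM in LW63, LW70 and LW119 and to 5.35, 4.44 and 2.97 FPKM in LW82, LW88 and LW90, and the log2 fold change was then 0.73 (adjusted p = 0.638 in limma). The assembled transcripts summed to 5.65, 4.24 and 4.15 FPKM in LW63, LW70 and LW119. In LW82, LW88 and LW90 they summed to 3.34, 7.87 and 5.36 FPKM, so LW88 was highest. The annotated share of VEGFA was between 49.0% and 66.6% in S-H and between 35.7% and 61.6% in S-L, so the groups overlapped. By exact two-sided permutation tests neither sum differed beyond the spread between pigs (annotated p = 0.3, assembled p = 0.7).

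ANGPT1, on chromosome 4 from 29933135 to 30233960, was at 1.34, 1.53 and 0.657 FPKM in LW63, LW70 and LW119 and at 1.25, 0.431 and 0.873 FPKM in LW82, LW88 and LW90. The groups overlapped broadly, with LW82 near the upper S-H pigs and LW119 below LW90. The S-H mean was 1.18 ± 0.462 FPKM and the S-L mean 0.851 ± 0.409 FPKM (SD, n = 3 for each). This gave a log2 fold change of 0.45 (SE 0.44, 95% interval -0.52 to 1.43, adjusted p = 0.768 in limma). Leaving out LW88 lowered it to 0.083 and leaving out LW70 to 0.24, while leaving out LW119 raised it to 0.79 and leaving out LW82 to 0.76. ANGPT2, the angiopoietin that can oppose ANGPT1 at TEK, had between 1.60 and 2.03 FPKM in S-H and between 0.571 and 1.46 FPKM in S-L, without overlap (log2 fold change 0.68, adjusted p = 0.628 in limma). The ratio of ANGPT1 to ANGPT2 ran from 0.324 to 0.956 in S-H and from 0.316 to 1.53 in S-L, which was no larger than the spread (p = 0.8 by exact permutation, two-sided, adjusted p = 0.8 over 5 ratios).

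**Figure D2:**
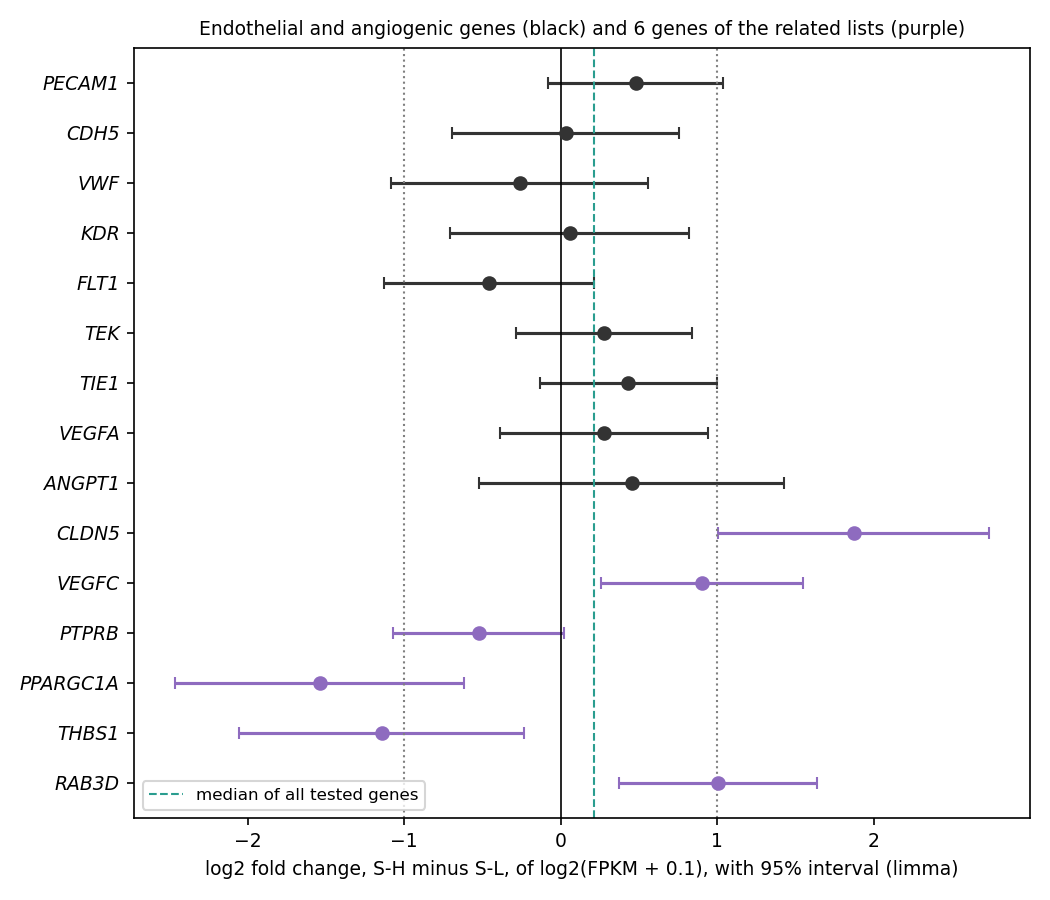
Log2 fold change, S-H minus S-L (horizontal axis), of each of the 9 genes (black) and of 6 genes of the related lists described further on (purple), with 95% limma intervals, the median of all tested genes as a dashed line and a log2 fold change of 1 in either direction as dotted lines. Every black interval crosses 0, and among the 9 FLT1 at -0.46 and PECAM1 at 0.48 are the lowest and the highest.

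At the level of transcripts, 34 of the 39 were annotated by Ensembl and 5 were assembled by the authors, and 5 were listed at 0 in all pigs. Of the 26 that were tested none passed the thresholds in limma, against 1.25% of all 40336 tested transcripts. Of the 26, PECAM1-203 and PECAM1-206 had an unadjusted p below 0.05 in limma, against 5.57% of all tested transcripts. PECAM1-206 had the highest mean of the PECAM1 transcripts, though in LW82 it lay below PECAM1-202, with 35.4, 41.5 and 39.4 FPKM in LW63, LW70 and LW119 and 13.4, 36.6 and 15.5 FPKM in LW82, LW88 and LW90. LW88 was thus like the S-H pigs, and LW82 and LW90 were low (log2 fold change 0.97, SE 0.40, adjusted p = 0.848 in limma). PECAM1-203 went the other way, listed at 0 in all 3 S-H pigs and in LW88 but at 8.95 FPKM in LW82 and 7.46 FPKM in LW90, where it made up 19.1% and 22.2% of PECAM1. Without LW88 both transcripts passed the thresholds, with adjusted p = 0.0324 for PECAM1-203 and adjusted p = 0.254 for PECAM1-206 in limma. How StringTie shares reads among PECAM1 transcripts that overlap was not tested.

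Other genes were carried by a single transcript. KDR-202 made up 92.5% to 98.9% of KDR, TIE1-201 at least 97.1% of TIE1, VWF-201 at least 93.3% of VWF and ANGPT1-201 at least 99.1% of ANGPT1. In FLT1 the share of FLT1-202 varied from 12.4% in LW70 to 50.7% in LW88, and in CDH5 that of CDH5-203 varied from 7.83% in LW88 to 43.2% in LW90. TEK was split between TEK-201 and TEK-202, and TEK-201 ran from 35.4% in LW119 to 67.1% in LW63. The shares of FLT1-202, CDH5-203 and TEK-201 overlapped between the groups, whereas that of VWF-201 did not, with 93.3% to 97.0% in S-H and 99.2% to 99.3% in S-L. Part of the remainder lay outside VWF as RefSeq places it, which ends at 64655938. The assembled transcript TCONS_00203423, which starts at 64992789, made up 1.59% in LW63 and 1.15% in LW70. How often shares do not overlap over all transcripts is not given here.

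Groups did not overlap in level for 2 of the 26 tested transcripts, TEK-204 and VWF-203, against 11.3% of all tested transcripts. TEK-204, which made up 9.01% to 10.4% of TEK in S-H and 7.24% to 8.35% in S-L, was at 1.27 to 2.01 FPKM in S-H and 0.998 to 1.16 FPKM in S-L (log2 fold change 0.56, adjusted p = 0.859 in limma). VWF-203 was at 0.121 to 0.251 FPKM in S-H and 0.0400 to 0.0589 FPKM in S-L (log2 fold change 0.98, adjusted p = 0.848 in limma). It made up no more than 4.18% of VWF in any pig.

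**Figure D3:**
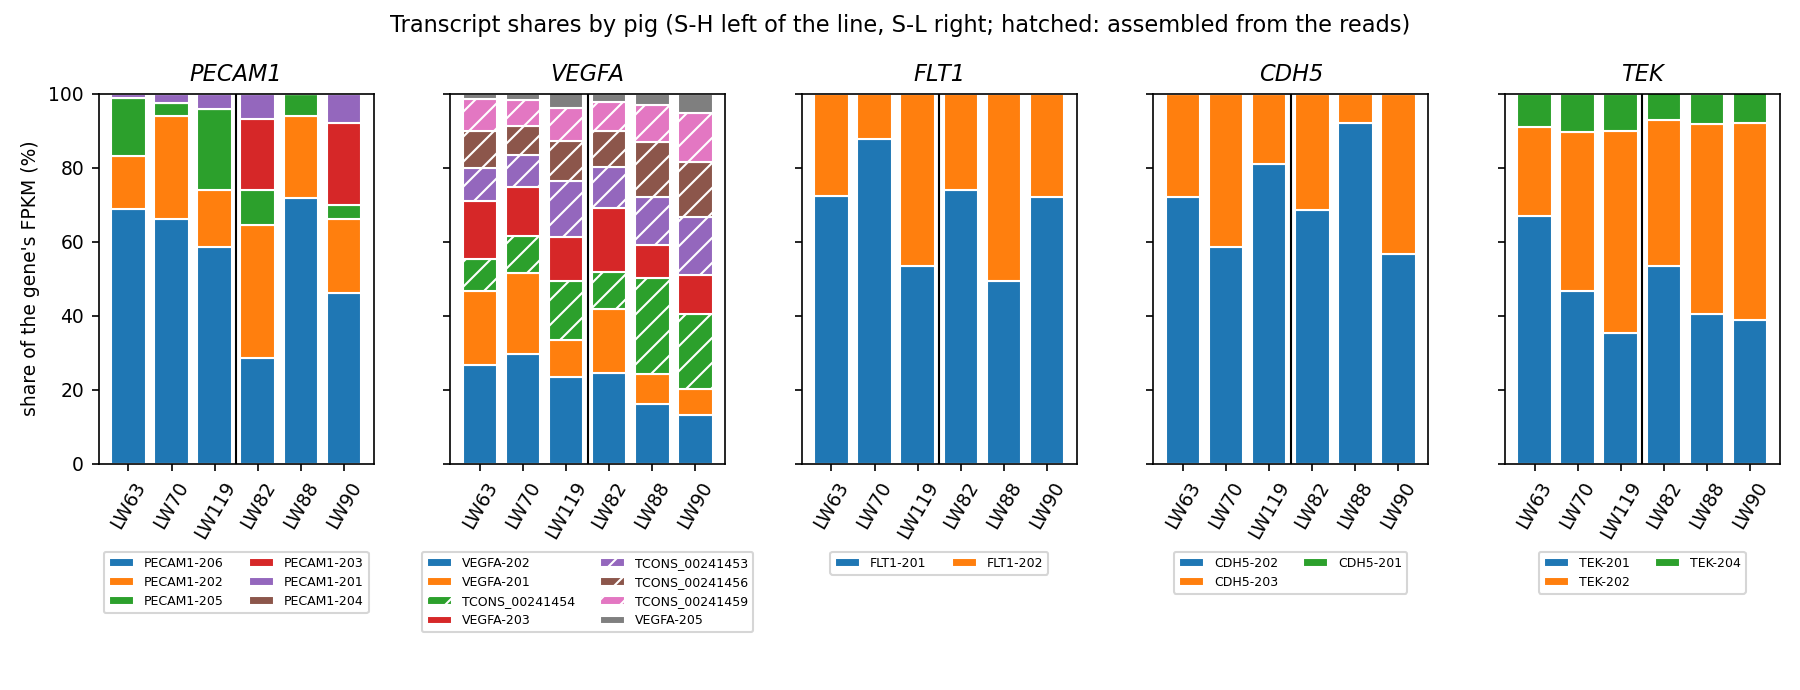
Share of each gene's summed FPKM, in percent (vertical axes), held by its transcripts in each pig (horizontal axes). PECAM1-203 appears only in LW82 and LW90, and the annotated share of VEGFA is lowest in LW88 and LW90.

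Across pigs the 9 genes did not all move together, though some of them shared their high pigs. CDH5, VWF, KDR and FLT1 had their 2 highest values in LW119 and LW82, a pig of each group, whereas TEK and VEGFA were lowest in LW119. PECAM1, KDR and TIE1 were lowest in LW90, whose size factor (the scale of the library relative to the others) of 0.808 was the lowest of the 6 (the others lay between 0.969 and 1.15). Of the 6 pairs of partners examined over the 6 pigs, ANGPT1 and its receptor TEK had the highest Pearson's r, 0.707 (exact permutation p = 0.124, adjusted p = 0.742), with Spearman's rho 0.657 (exact permutation p = 0.175, adjusted p = 0.803). When the 2 pigs with the most extreme ANGPT1 were left out, r was 0.777, on the 4 pigs that remain. VEGFA and KDR had r = -0.0797 (exact permutation p = 0.922) and rho = -0.143 (exact permutation p = 0.803). The other 4 pairs (PECAM1 with CDH5, FLT1 with KDR, TIE1 with TEK and VWF with PECAM1) had r between -0.0400 and 0.382. Treated in the same way, r became -0.136 for VEGFA with KDR, -0.238 for PECAM1 with CDH5 and -0.00433 for FLT1 with KDR. It became -0.495 for TIE1 with TEK and -0.769 for VWF with PECAM1, so 3 of these pairs turned from positive to negative. Leaving out the 2 pigs most extreme in the first gene narrows the range of that gene, so these values cannot show what the r of 6 pigs rested on. The adjusted p of the 6 pairs was 0.742 or higher for r and 0.803 for rho, by exact permutation. Pairs among CDH5, VWF and FLT1, which shared their 2 highest pigs, were not examined, so the 6 pairs do not describe them.

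The mean log2 level of the 7 endothelial cell genes was 3.13, 3.30 and 3.58 in LW63, LW70 and LW119 and 3.59, 3.12 and 3.07 in LW82, LW88 and LW90. LW119 and LW82 were again the highest. The tested genes with a pattern most like it, by Pearson's r over the 6 pigs, were FAM83C (0.994), MECOM (0.986), TSPAN2 (0.984), MMS22L (0.980) and G2E3 (0.980). This is a description over 6 libraries, whose depth and scale enter both values, and 0.856% of all tested genes had an r above 0.9. None of the 23 other endothelial genes tested did so. FAM83C and TSPAN2 were below 0.31 FPKM in every pig.

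Related genes were examined in 8 lists, of which 91 of 101 genes were tested. Of these 91, CLDN5 and RAB3D passed the thresholds as higher in S-H (all tested genes 1.17%) and PPARGC1A as lower (0.188%), with 11 at an unadjusted p below 0.05 (all tested genes 8.16%). The groups did not overlap for 22 of them, 17 with S-H above (all tested genes 13.1%) and 5 with S-H below (all tested genes 1.7%), or 14.8% of all tested genes in either direction. The median log2 fold change of the 91 genes was 0.17 against 0.21 for all tested genes.

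CLDN5 encodes claudin 5, the protein that seals the tight junctions of endothelial cells. It was at 29.7, 24.8 and 22.2 FPKM in LW63, LW70 and LW119 and at 12.6, 6.75 and 3.77 FPKM in LW82, LW88 and LW90, so the groups were well apart. The log2 fold change was 1.87 (SE 0.39, 95% interval 1.01 to 2.74, adjusted p = 0.415 in limma), or 1.66 above the median of all genes. It passed the thresholds in every setting tried, with log2 fold changes of 1.45 to 2.31, but the adjusted p did not reach 0.05. For comparison, the log2 fold change of CDH5 was 0.031 as given above, and that of ESAM, another junction protein, 0.15 (adjusted p = 0.854 in limma). Among the 23 genes of endothelial junctions, lineage and surface, CLDN5 alone passed. Of the 23 genes, 14 had a positive and 9 a negative fold change, against 74.1% positive over all tested genes. Their median was 0.11 against 0.21 for all tested genes, and 7 of the 23 lay above the latter. RAMP2 (0.20) and EGFL7 (0.25), the most abundant of them, had overlapping groups. SOX18, an endothelial transcription factor singled out after its values were seen, was at 0.985 to 1.73 FPKM in S-H and 2.27 to 2.65 FPKM in S-L (log2 fold change -0.88, adjusted p = 0.580 in limma), and passed with size factors, with quantile normalization and without LW119.

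Of the other VEGF and angiopoietin ligands and receptors 8 were tested and none passed. ANGPT4, described at the end, had the largest log2 fold change of them (1.202, adjusted p = 0.580 in limma). VEGFC, the growth factor of lymphatic vessels, had the lowest p in limma. It was at 2.95, 2.87 and 4.34 FPKM in LW63, LW70 and LW119 and at 2.002, 1.83 and 1.42 FPKM in LW82, LW88 and LW90. The groups were separate (log2 fold change 0.90, SE 0.29, adjusted p = 0.580 in limma). Its receptor FLT4 had a log2 fold change of 0.37 (adjusted p = 0.797 in limma). PTPRB, the phosphatase that restrains TEK, was at 5.87 to 8.50 FPKM in S-H and 9.17 to 11.14 FPKM in S-L (log2 fold change -0.52, adjusted p = 0.614 in limma). NRP1, the co-receptor of KDR, had a log2 fold change of 0.081 (adjusted p = 0.939 in limma). It was negative with size factors (-0.14) and with quantile normalization (-0.069), but 0.21 in TPM.

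Among 8 genes of oxygen sensing and VEGFA regulation, PPARGC1A, a coactivator of mitochondrial and VEGFA genes in muscle, was lower in S-H. It was at 10.01, 22.4 and 15.1 FPKM in LW63, LW70 and LW119 and at 25.5, 76.0 and 43.7 FPKM in LW82, LW88 and LW90. LW82 was just above LW70 and LW88 stood far above the rest. The log2 fold change was -1.54 (SE 0.41, adjusted p = 0.540 in limma). It no longer passed without LW63 (-1.25), without LW88 (-1.15) or without LW90 (-1.54), nor with the highest transcript in place of the sum (-1.54). ESRRA, the nuclear receptor that PPARGC1A works with, had a log2 fold change of 0.21 (adjusted p = 0.863 in limma). The hypoxia-responsive factors HIF1A (-0.012) and EPAS1 (-0.29) had overlapping groups, and VEGFA, which both can induce, had a log2 fold change of 0.28 as given above.

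Of the genes that work with VWF in haemostasis 9 were tested. RAB3D, a GTPase of secretory granules, passed narrowly, with 2.36, 3.66 and 2.66 FPKM in LW63, LW70 and LW119 and 1.40, 1.47 and 1.25 FPKM in LW82, LW88 and LW90 (log2 fold change 1.005, SE 0.28, adjusted p = 0.548 in limma). Its groups were separate, but it did not pass with size factors (0.80), with quantile normalization (0.75), with a pseudocount of 1 (0.70), with the highest or the annotated transcripts (0.62 in each) or without any single pig other than LW63 (0.83 to 1.05). PLAT (0.43) and PROCR (0.43), which act in clot breakdown and in the protein C pathway, did not pass.

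None of the genes in the other 4 lists passed the thresholds. Of 14 genes of VEGF and TIE receptor signalling, FOXO1 had the lowest p (log2 fold change -0.65, adjusted p = 0.608 in limma), with the kinases AKT1 at 0.53 and PIK3CA at -0.025. Of 13 genes of Notch signalling and artery or vein identity, JAG1, a Notch ligand, was at 3.73 to 5.60 FPKM in S-H and 5.81 to 8.09 FPKM in S-L (log2 fold change -0.51, adjusted p = 0.620 in limma). The highest transcript of JAG1, used in place of the sum, passed with a log2 fold change of -5.05 (adjusted p = 0.0912 in limma). The sum of all JAG1 transcripts did not share a change of this size, and how StringTie shares reads among them was not tested. NR2F2, a factor of vein identity, had 0.20. Of 9 secreted inhibitors of vessel growth, THBS1 (thrombospondin 1) was at 62.1, 39.1 and 42.4 FPKM in LW63, LW70 and LW119 and at 59.9, 92.5 and 201 FPKM in LW82, LW88 and LW90. LW63 and LW82 overlapped and LW90 was far above the rest (log2 fold change -1.14, SE 0.41, adjusted p = 0.580 in limma), and THBS1 passed without LW82 (-1.54), while its log2 fold change was -0.67 without LW90. TIMP3 had -0.30. Over all 8 lists, 39 of the 91 tested genes lay above the median of all genes. All 7 tested genes of capillary caveolae and lipid delivery had a positive fold change before rescaling, against 74.1% of all tested genes. Of these 7 genes, 6 lay above the median of all genes, with a list median of 0.35 against 0.21 for all tested genes. They included CAV1, which builds caveolae (195, 205 and 186 FPKM in S-H, 152, 167 and 153 FPKM in S-L, log2 fold change 0.31, adjusted p = 0.699 in limma), and CAVIN1 (0.54, adjusted p = 0.608 in limma). Fat cells express both of these genes too.

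**Figure D4:**
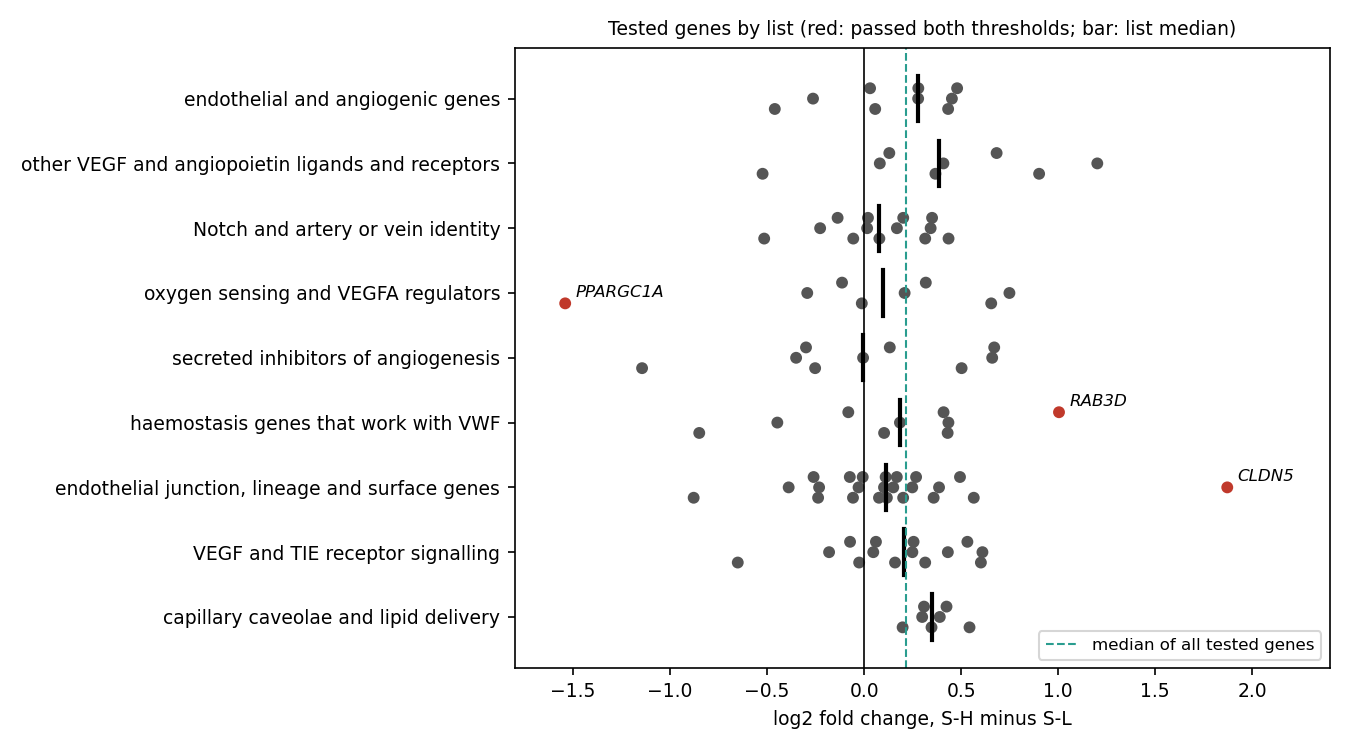
Log2 fold change, S-H minus S-L (horizontal axis), of each tested gene (points) in the 9 endothelial and angiogenic genes and the 8 related lists (vertical axis), with the list median as a bar and the median of all tested genes as a dashed line. Only PPARGC1A (-1.54), RAB3D (1.005) and CLDN5 (1.87) passed both thresholds.

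Markers of other cells moved with the groups in part. All 4 matched fat cell markers, of 5 listed, passed the thresholds (ADIPOQ, PLIN1, CIDEC and LEP), and their sum was 134 to 481 FPKM in S-H and 31.8 to 89.0 FPKM in S-L. The 12 endothelial markers, 7 of which are among the 9 genes described, summed to 159 to 177 FPKM in S-H and 105 to 148 FPKM in S-L, with PECAM1 and CLDN5 the largest parts of the difference. The median log2 fold change of these 12 markers was 0.16, against 0.21 for all tested genes. In 3 of the 12 the S-H pigs all lay above the S-L pigs, against 13.1% of all tested genes. Pericyte and smooth muscle markers (9 of 9) summed to 187 to 282 FPKM in S-H and 180 to 222 FPKM in S-L. Lymphatic markers (3 of 4) summed to 7.88 to 21.8 and 7.28 to 11.4 FPKM. Leukocyte markers (5 of 5) summed to 10.6 to 39.1 and 15.8 to 17.8 FPKM, with the highest value in LW119, and fibroblast markers (4 of 4) to 192 to 388 and 230 to 359 FPKM. No matched marker was at 0 in all pigs. The part of fat cells in the values of PECAM1, CLDN5, VEGFC and PPARGC1A was not tested, and in these 6 pigs fat content and group cannot be told apart.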

How the data were processed

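The 6 libraries, 3 of S-H and 3 of S-L pigs, come from different animals, and each counts as 1 replicate. As the study's methods state, the authors aligned reads of strand-specific libraries with HISAT2 and used StringTie to assemble transcripts and estimate their levels, and their own tests used edgeR. The deposited values are FPKM per transcript and pig, computed by the authors. Ensembl transcripts without a symbol (21104) are deposited in TPM instead, as found from the values, and were converted to FPKM with 1 factor per pig. No transcript of the genes described needed this. Gene sums then equalled the authors' gene values within 1% for 1998 of 1998 genes checked, against 1642 as deposited. The sources name no further scaling of the libraries, and the tests reported first add none. Counts of reads were not used, the depth behind a value is unknown, no counting intervals are given, and precision rests on the spread between 3 pigs.

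Transcripts of a gene were summed. Protein-coding genes were taken from RefSeq of Sscrofa11.1, by symbol for 13807 and by reciprocal overlap of at least 50% for 3277. Those whose mean over all pigs reached 0.1 FPKM entered the test, made on log2(FPKM + 0.1), a scale that understates changes of low genes, with limma 3.58.1 (variance trend) in R 4.3.3, with Benjamini-Hochberg adjustment over all genes tested. Single ratios and correlations were tested by exact permutation in Python 3.11.15 with scipy 1.17.1. The limma step was tested on simulated data.

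The genes, lists and tests were chosen with earlier results of these data known. Genes named were those described and, in each list, the 2 with the highest mean, the gene with the lowest p and every gene that passed, with the 5 genes most like the mean of the 7 endothelial cell genes. Others named beside them were chosen after their values were seen. The alternatives changed the pseudocount, the minimum, the scaling, the variance model, the genes tested, the gene value and the pigs. Sequences were not used here.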

Additional observations from a re-analysis of the deposited data

How the results depend on the processing

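None of the 9 genes passed the thresholds in any of the settings tried. Their limits are set by the spread between 3 pigs and by the scaling of libraries. The number of genes that passed was 173, of which 149 were higher and 24 lower in S-H. It was 77 with a pseudocount of 1, 0 at an adjusted p below 0.05 (limma, with 1039 at an unadjusted p below 0.05), and 86 to 261 with 1 pig left out, lowest without LW90 and highest without LW82. The split into higher and lower was 84 to 55 with size factors, 69 to 62 with quantile normalization and 238 to 14 in TPM.

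Some log2 fold changes near 0 changed sign. With size factors they were CDH5 (-0.19), KDR (-0.16), RAMP2 (-0.019), NRP1 (-0.14), ESRRA (-0.012), NR2F2 (-0.014), FAM83C (-0.037), MECOM (-0.018) and G2E3 (-0.11). With quantile normalization they were CDH5 (-0.14), KDR (-0.15), NRP1 (-0.069), NR2F2 (-0.012), FAM83C (-0.21), MECOM (-0.065), TSPAN2 (-0.18), MMS22L (-0.12) and G2E3 (-0.10). With the highest transcript they were NRP1 (-0.39) and MECOM (-1.94), and in TPM PIK3CA (0.11). With 1 pig left out the ranges were -0.24 to 0.27 for CDH5, -0.25 to 0.43 for KDR, -0.11 to 0.20 for NRP1, -0.11 to 0.064 for PIK3CA, -0.043 to 0.47 for ESRRA, -0.031 to 0.42 for NR2F2, -0.022 to 0.31 for FAM83C, -0.16 to 0.63 for MECOM, -0.13 to 0.45 for TSPAN2 and -0.16 to 0.73 for MMS22L. The cause was not tested.

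The number of transcripts of the 9 genes that passed was 0 to 2 with 1 pig left out. The log2 difference of KDR to PECAM1 was -0.42 and became -0.89 with the highest transcript. The correlation of VWF with PECAM1 became 0.0409 on FPKM and 0.248 on deviations from the group means, and that of TIE1 with TEK -0.264 on deviations. The endothelial list had 2 genes that passed with size factors and 1 to 2 with 1 pig left out, the oxygen sensing list 0 to 1, the inhibitors 0 to 2 and the haemostasis list 0 to 1, and the haemostasis list had 0 with size factors and 0 with a pseudocount of 1. The use of annotated transcripts alone was chosen after seeing the data. No paired analysis was possible because the pigs are different animals and the replicate numbers only name them.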

Other observations

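CLDN5 was compared with the other endothelial genes after its values were seen. Divided by the geometric mean of PECAM1, CDH5, KDR, FLT1, TEK, TIE1 and VWF, CLDN5 was 3.44, 2.55 and 1.87 in LW63, LW70 and LW119 and 1.06, 0.788 and 0.455 in LW82, LW88 and LW90. The ratio was 3.51-fold higher in S-H (p = 0.10 by exact two-sided permutation, a floor that groups of 3 cannot go under). The order of the pigs by CLDN5, from LW63 down through LW70, LW119, LW82 and LW88 to LW90, was also the order by PLIN1, ADIPOQ and CIDEC, proteins of fat cells, but not by LEP, the fourth fat cell marker, which was at 0.637 FPKM in LW82 and 0.984 FPKM in LW88. This order was found for 111 of the 12740 tested genes (0.871%). It is possible only for the 1667 genes whose S-H pigs all lay above the S-L pigs, and CLDN5 was picked from among these. The fat cell markers also differ between the groups together, so they are not separate comparisons.

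Some related genes had an unadjusted p below 0.05 in limma without passing both thresholds. ANGPT4, another angiopoietin, was at 0.790 to 1.19 FPKM in S-H and 0.139 to 0.540 FPKM in S-L (log2 fold change 1.202, adjusted p = 0.580 in limma). EGLN3, an oxygen-sensing hydroxylase that targets the HIF proteins, was at 12.9 to 15.1 FPKM in S-H and 6.002 to 11.6 FPKM in S-L (0.75, adjusted p = 0.580 in limma). SELP, the adhesion receptor that endothelial cells and platelets store beside VWF, was at 0.174 to 0.350 FPKM in S-H and 0.488 to 0.661 FPKM in S-L (-0.85, adjusted p = 0.608 in limma). In each of the 3 genes the groups did not overlap, against 14.8% of all tested genes. These genes were picked by their p, which favours groups that are apart, so the separation adds nothing to it.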
